A study of Mus musculus with 39 samples.

Results

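The TGF-beta ligands and receptors of the mouse sciatic nerve were examined as a set of 10 genes, chosen by name: the ligands Tgfb1, Tgfb2 and Tgfb3, the activin subunit Inhba, the latent-complex protein Ltbp1, the receptors Tgfbr1, Tgfbr2 and Tgfbr3, the inhibitory Smad7 and the induced matrix protein Tgfbi. Members were taken by symbol, without a threshold on any measured value, but earlier results of these data were known when the set was chosen. All 10 were found among the 55573 genes counted, and all 10 were among the 18442 genes that passed the filter on low counts. RNA-seq had been performed on sciatic nerve endoneuria, which hold the axons, their Schwann cells and the vessels, fibroblasts and macrophages between them, from adult C57BL/6 mice. All mice carried floxed Lepr alleles (Lepr fl/fl). Lepr-ctrl mice carried these alone, whereas Lepr-cKO mice also carried Dhh-Cre, which drives recombination in cells of the Schwann cell lineage from embryonic life. One sciatic nerve was crushed (injured), and the nerve of the other side served as the healthy nerve. Nerves were taken at 2 or 4 weeks post-crush (wpc) from different mice, so that time and cohort cannot be told apart. At 2 wpc there were 5 healthy and 5 injured Lepr-ctrl nerves and 6 healthy and 5 injured Lepr-cKO nerves. At 4 wpc there were 5 healthy and 4 injured nerves of each genotype. The comparisons asked how the set responds to injury in each genotype and at each time, and whether loss of the leptin receptor from Schwann cells alters its levels.

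TGF-beta proteins are secreted as latent dimers that stay bound to a propeptide and, through it, to latent TGF-beta binding proteins in the extracellular matrix until integrins, proteases or other activators release them. Active ligand binds the type II receptor TGFBR2, which recruits and phosphorylates the type I receptor TGFBR1, and the receptor complex phosphorylates Smad2 and Smad3, which enter the nucleus with Smad4. In peripheral nerve the pathway is known for its part in Schwann cell reprogramming after injury and in communication between Schwann cells, fibroblasts and macrophages.

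Libraries held 10905806 to 45016322 counts in total (median 27752451). Levels are given as CPM, counts scaled to TMM-normalized library sizes, and genes were called at an adjusted p under 0.05 (edgeR quasi-likelihood test, Benjamini-Hochberg over all tested genes). Nothing in the labels says more on replicates than the animal number, so each library is 1 nerve of 1 mouse. Cell markers differed widely between nerves. The 8 Schwann cell markers summed to 83900 to 115000 CPM in healthy and 11200 to 78800 CPM in injured nerves, and the 10 macrophage markers to at most 480 CPM in healthy and 1060 to 4950 CPM in injured nerves. In bulk tissue, fewer cells of a type and less RNA per cell cannot be told apart, and the part of these shifts in the results below was not tested. Mitochondrially encoded genes held 1.92% to 4.25% of counts in healthy and 2.95% to 33% in injured nerves. There were 3 libraries that stood apart, given here by the names in the labels (SLRKO2wpc for both genotypes at 2 wpc, WT or KO at 4 wpc, the animal number, and a last letter i for injured or c for healthy). The injured Lepr-cKO nerve SLRKO2wpc126i had skeletal muscle markers summing to 41700 CPM, against at most 37.8 CPM elsewhere. The injured Lepr-ctrl nerve SLRKO2wpc144i and the injured Lepr-cKO nerve SLRKO2wpc135i had 33% and 29.7% mitochondrial counts. Lepr itself did not differ by genotype in injured nerves (log2 fold change 0.39 ± 0.29 SE at 2 wpc and -0.54 ± 0.33 at 4 wpc, edgeR adjusted p = 0.939 and 0.362). Lepr is also made by other cells, and counts over the whole gene can include transcript of a deleted allele, so this comparison checks the genotype labels little.

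The promoters of Tgfb1, Tgfb2, Inhba and Tgfbr2 are shown because these genes carry the main findings below, with 3 ligand genes that rose and the receptor that fell most, and because their promoters differ in kind. Each run holds the 250 bases before the annotated RefSeq start (build GRCm38.p6), 5′ to 3′ on the strand of the gene. Capitals mark matches on either strand to the GC box GGGCGG, the Smad box CAGAC, the TATA box TATAAA, the CRE TGACGTCA and the AP-1 motif TGANTCA. The regions are chr7:25686752-25687001 (plus strand) for Tgfb1, chr1:186705990-186706239 (minus strand) for Tgfb2, chr13:16011601-16011850 (plus strand) for Inhba and chr9:116175364-116175613 (minus strand) for Tgfbr2.
Tgfb1: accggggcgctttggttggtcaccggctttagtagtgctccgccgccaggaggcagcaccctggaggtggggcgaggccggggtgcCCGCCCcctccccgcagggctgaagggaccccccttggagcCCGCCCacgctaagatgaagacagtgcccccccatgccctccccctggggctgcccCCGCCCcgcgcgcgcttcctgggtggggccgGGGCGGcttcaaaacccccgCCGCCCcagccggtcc
Tgfb2: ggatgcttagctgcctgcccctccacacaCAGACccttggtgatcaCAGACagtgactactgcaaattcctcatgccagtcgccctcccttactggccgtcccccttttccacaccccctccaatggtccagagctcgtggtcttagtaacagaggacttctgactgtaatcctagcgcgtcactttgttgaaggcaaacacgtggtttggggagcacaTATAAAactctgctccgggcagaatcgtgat
Inhba: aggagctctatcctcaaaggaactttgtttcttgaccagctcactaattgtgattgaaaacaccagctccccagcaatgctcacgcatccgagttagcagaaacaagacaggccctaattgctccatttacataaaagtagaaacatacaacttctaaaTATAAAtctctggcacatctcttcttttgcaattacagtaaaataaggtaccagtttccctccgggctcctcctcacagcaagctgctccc
Tgfbr2: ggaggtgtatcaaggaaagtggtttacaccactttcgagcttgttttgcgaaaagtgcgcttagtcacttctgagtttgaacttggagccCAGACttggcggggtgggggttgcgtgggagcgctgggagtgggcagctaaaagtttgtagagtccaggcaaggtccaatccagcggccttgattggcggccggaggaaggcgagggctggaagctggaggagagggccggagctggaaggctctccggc

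The Tgfb1 window was 75.2% G or C and held 5 GC boxes, 16 to 164 bases before the start, and no match to the other motifs. The Tgfb2 window held a TATA box 31 bases before the start and 2 Smad boxes 204 and 221 bases before it. The Inhba window, at 43.2% G or C, held only a TATA box, 91 bases before the start, and the Tgfbr2 window only a Smad box, 160 bases before it. Across 32841 windows of 250 bases before RefSeq starts, GC boxes occurred in 32.7%, Smad boxes in 42.2%, TATA boxes in 12.4%, AP-1 motifs in 6.75% and CREs in 1.55%. Windows of 7 of the 10 genes were used, 9 in all, and those of Tgfb3, Tgfbr3 and Smad7 were not analysed here. None of the 9 held an AP-1 match, and 1, that of Ltbp1, held a CRE. A match is a description of the letters and says nothing of binding.

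In both genotypes and at both times, injury changed most of the set, and each gene that was called more than once moved in the same direction each time. Transcripts of the ligand Tgfb1, of the activin subunit Inhba, of Ltbp1, of the type I receptor Tgfbr1 and of the induced gene Tgfbi rose in all 4 comparisons of injured with healthy nerves, whereas the type II receptor Tgfbr2 and the co-receptor Tgfbr3 fell in all 4. Tgfb2 rose in 3 comparisons, Smad7 rose and Tgfb3 fell at 2 wpc in both genotypes, and neither Smad7 nor Tgfb3 was called at 4 wpc. In Lepr-ctrl nerves at 2 wpc, 7 of the 10 genes rose and 3 fell, where 33.7% of all tested genes rose and 30.2% fell. Lepr-cKO nerves at 2 wpc likewise had 7 genes called higher and 3 lower, against 35.9% and 29.2% of all genes. At 4 wpc, 6 rose and 2 fell in Lepr-ctrl nerves (32.4% and 31.2% of all genes), and 5 rose and 2 fell in Lepr-cKO nerves (29.6% and 25.8%). Since injury moved most of the tested genes, these counts describe the set, and no test of the set against other genes was made. The median log2 fold change over the 10 genes was 0.88, 1, 0.71 and 0.73 in Lepr-ctrl and Lepr-cKO nerves at 2 wpc and Lepr-ctrl and Lepr-cKO nerves at 4 wpc, beside 0.078, 0.097, 0.024 and 0.057 over all tested genes. Injured and healthy libraries did not overlap for 6, 6, 7 and 6 of the 10 genes in the same order, and for 47.9%, 41.4%, 54.8% and 41.9% of all genes.

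**Figure D1:**
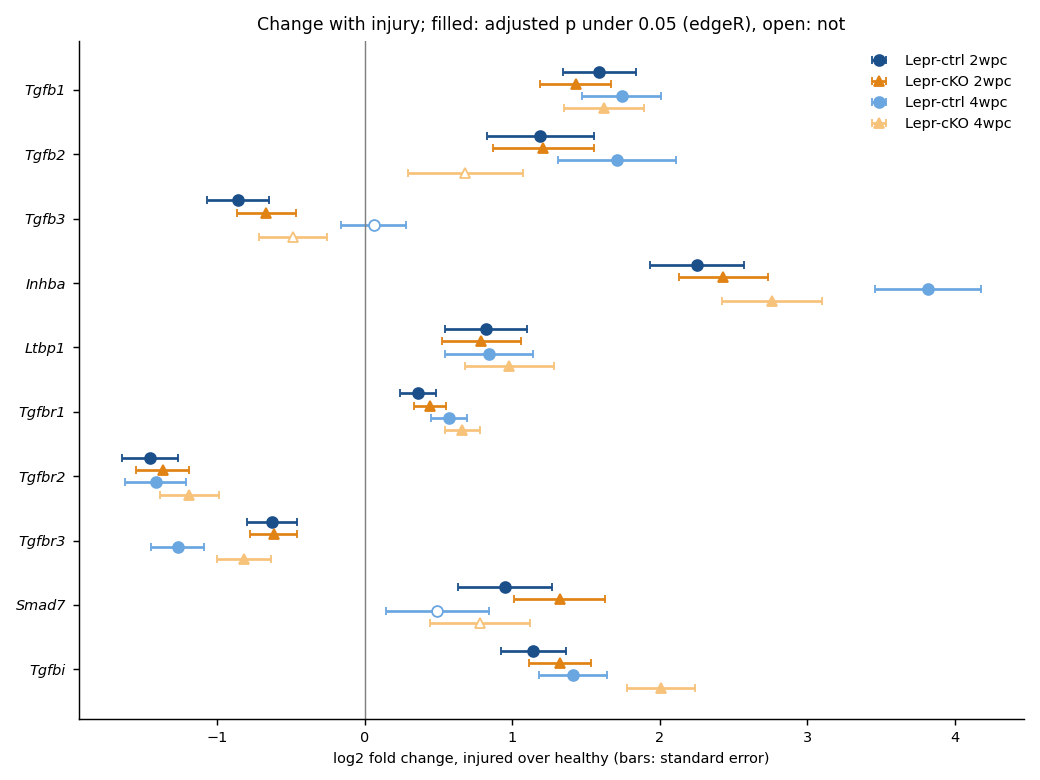
Log2 fold change of each of the 10 genes in injured over healthy nerves (horizontal axis), 1 symbol per genotype and time, with bars for the standard error and filled symbols for an edgeR adjusted p under 0.05. Inhba lies farthest right, up to 3.82 in Lepr-ctrl nerves at 4 wpc, and Tgfbr2 farthest left, between -1.46 and -1.19.

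Among the ligands, Tgfb1 (chromosome 7, 25687002 to 25705077, GRCm38), which encodes the isoform most widely made by immune cells and in wounds, rose 2.69- to 3.34-fold. In Lepr-ctrl mice at 2 wpc it was at 13.6, 17.3, 11, 11.2 and 10.4 CPM in healthy nerves and at 38.8, 43.8, 34.9, 45 and 29 CPM in injured nerves. At 4 wpc the healthy Lepr-ctrl nerves had 22.9, 9.58, 8.77, 15.1 and 10.5 CPM and the injured ones 42.1, 51.7, 40.2 and 45.3 CPM. Every injured library therefore lay above every healthy library of its arm, and WT-168Snc was the highest of the healthy nerves. In Lepr-cKO mice at 2 wpc the healthy nerves ranged from 10.6 to 15.2 CPM (median 12.5, n = 6) and the injured nerves had 24.7, 32.4, 46.5, 50.6 and 16.1 CPM. At 4 wpc the Lepr-cKO nerves had 13.7, 11.5, 10.4, 9.45 and 13.1 CPM when healthy and 55.5, 32.3, 20 and 35.2 CPM when injured. The groups again did not overlap, but the injured Lepr-cKO nerves were more spread (SD 14.5 CPM at 2 wpc and 14.7 CPM at 4 wpc) than the injured Lepr-ctrl nerves (6.58 and 5.05 CPM). The log2 fold change was 1.59 ± 0.25 (SE) in Lepr-ctrl and 1.43 ± 0.24 in Lepr-cKO nerves at 2 wpc (edgeR adjusted p = 1.67e-06 and 3.4e-06), and 1.74 ± 0.27 and 1.62 ± 0.27 at 4 wpc (edgeR adjusted p = 8.43e-07 and 4.58e-06).

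Tgfb2 (chromosome 1, 186622792 to 186705989, minus strand) encodes an isoform known for its roles in development and was per length the least abundant of the TGF-beta isoforms. It ranged from 1.37 to 6.22 CPM over the healthy nerves. Injured nerves had 5.64, 16.1, 12.1, 11.5 and 8.31 CPM (Lepr-ctrl) and 4.4, 11.2, 11.7, 18.4 and 4.94 CPM (Lepr-cKO) at 2 wpc. They had 6.7, 8.15, 5.73 and 12.4 CPM (Lepr-ctrl) and 6.28, 3.34, 5.07 and 11.1 CPM (Lepr-cKO) at 4 wpc. Only in Lepr-ctrl nerves at 4 wpc did all injured libraries exceed all healthy ones (1.37 to 3.56 CPM). Tgfb2 rose by a log2 fold change of 1.19 ± 0.36 and 1.21 ± 0.34 in Lepr-ctrl and Lepr-cKO nerves at 2 wpc (edgeR adjusted p = 0.00503 and 0.00256) and of 1.71 ± 0.4 in Lepr-ctrl nerves at 4 wpc (edgeR adjusted p = 0.000334). In Lepr-cKO nerves at 4 wpc the value was 0.68 ± 0.39 (edgeR adjusted p = 0.137). With the mouse as a block this became 0.74 with an edgeR adjusted p of 0.0144. Without the 3 libraries that stand apart (an alternative chosen after seeing the data), the change in Lepr-cKO nerves at 2 wpc was 0.68 and was no longer called (edgeR adjusted p = 0.111). An antisense gene, Gm29491, covers 2.14% of the exon bases of Tgfb2, and since use of strand in counting is not stated its reads cannot be told apart there.

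Tgfb3 (chromosome 12, 86056745 to 86079041, minus strand), the isoform tied to scarless repair and palate closure, moved the other way at 2 wpc. Healthy Lepr-ctrl nerves at 2 wpc had 25.9, 26.2, 28.7, 29.2 and 29 CPM, and injured ones 17.5, 17.5, 16.9, 10.9 and 13.6 CPM. Healthy Lepr-cKO nerves at 2 wpc ranged from 24.5 to 32.8 CPM (median 28.7), and injured ones had 12.8, 34.8, 11.4, 16.8 and 14 CPM. The groups were separate in Lepr-ctrl mice, and in Lepr-cKO mice SLRKO2wpc126i, the library rich in muscle transcripts, lay above all healthy ones while the other 4 lay below them. At 4 wpc the injured nerves had 26.5, 51.6, 24.9 and 23.3 CPM in Lepr-ctrl and 22.8, 16.8, 27 and 30.9 CPM in Lepr-cKO mice, beside healthy ranges of 27.5 to 33.4 CPM and 30.6 to 38.3 CPM. In Lepr-ctrl mice 3 injured libraries lay just below the healthy ones, and WT-171Sni lay far above. Tgfb3 fell at 2 wpc (log2 fold change -0.86 ± 0.21 in Lepr-ctrl and -0.67 ± 0.2 in Lepr-cKO nerves, edgeR adjusted p = 0.000673 and 0.00443), and without SLRKO2wpc126i the Lepr-cKO change was -1.05 (edgeR adjusted p = 2.04e-06). The values at 4 wpc were 0.06 ± 0.22 and -0.49 ± 0.23 (edgeR adjusted p = 0.819 and 0.0627), and with the mouse as a block the Lepr-cKO value was -0.54 and passed (edgeR adjusted p = 0.0411), as it did without KO-177Sni (-0.64, edgeR adjusted p = 0.0311). The annotated genes Gm37804 and Gm48008 on the other strand share 12.4% of the exon bases of Tgfb3.

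**Figure D2:**
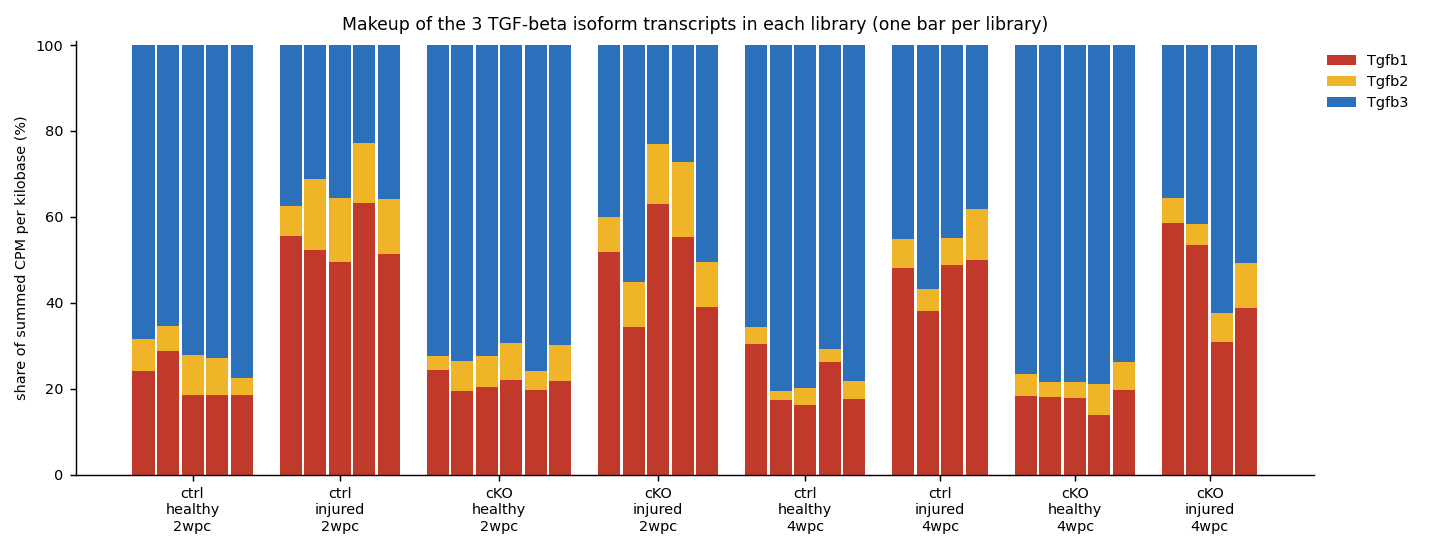
Share of the summed CPM per kilobase of Tgfb1 (red), Tgfb2 (yellow) and Tgfb3 (blue) in each library, 1 bar per library, grouped by genotype, nerve and time. Tgfb3 takes 65.3% or more of every healthy bar and 62.2% or less of every injured bar.

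Tgfb1 rose while Tgfb3 fell at 2 wpc, and the makeup of the isoform transcripts differed between healthy and injured nerves. Per length of exon sequence, Tgfb3 made up 71.2% ± 4.58 (SD, n = 5) of the summed level of the isoforms in healthy Lepr-ctrl nerves at 2 wpc and 32.5% ± 5.97 (n = 5) in injured ones, while the share of Tgfb1 was 21.7% ± 4.64 and 54.4% ± 5.42. In Lepr-cKO nerves at 2 wpc the Tgfb3 share was 72.2% ± 2.41 (n = 6) in healthy and 39.2% ± 14 (n = 5) in injured nerves. At 4 wpc it was 75% ± 6.47 (n = 5) and 46.3% ± 7.67 (n = 4) in Lepr-ctrl nerves, and 77.2% ± 2.13 (n = 5) and 47.6% ± 11.5 (n = 4) in Lepr-cKO nerves. Healthy and injured libraries did not overlap in the Tgfb3 share in any arm (lowest healthy 65.3%, highest injured 62.2%). The shares are a description and were not tested. They depend on the length used: with the longest transcript as length, under which Tgfb1 is shorter, the mean Tgfb3 share was 58.6% to 65.7% in the healthy groups and 21.2% to 33.6% in the injured groups, and Tgfb1 exceeded Tgfb3 in all 4 injured groups.

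The gene with the largest rise was Inhba (chromosome 13, 16011851 to 16031621). It encodes the beta A subunit of inhibin A and of activin A, of which activin A signals through the same Smad2 and Smad3 branch. Healthy nerves held little Inhba transcript, with 7 to 52 counts per library. In Lepr-ctrl mice at 2 wpc it was at 1.58, 0.836, 0.659, 0.826 and 0.356 CPM in healthy and at 5.52, 3.48, 4.57, 3.75 and 3.22 CPM in injured nerves. In Lepr-ctrl mice at 4 wpc the values were 0.519, 0.333, 0.358, 0.578 and 0.226 CPM and 6, 6.12, 5.12 and 6 CPM. Injured and healthy nerves were far apart at both times, and the injured nerves at 4 wpc were close together. Healthy Lepr-cKO nerves at 2 wpc ranged from 0.361 to 1 CPM (median 0.554), and injured ones had 2.96, 4.8, 2.39, 3.03 and 3.85 CPM. At 4 wpc the Lepr-cKO values were 0.819, 0.512, 0.404, 1.08 and 0.769 CPM in healthy and 3.12, 5.74, 3.55 and 7.17 CPM in injured nerves. Here too no injured library reached down to the healthy ones. The rise was 4.77-fold and 5.38-fold in Lepr-ctrl and Lepr-cKO nerves at 2 wpc (log2 fold change 2.25 ± 0.32 and 2.43 ± 0.3, edgeR adjusted p = 1.66e-07 and 1.42e-08). At 4 wpc it was 14.1-fold and 6.78-fold (3.82 ± 0.36 and 2.76 ± 0.34, edgeR adjusted p = 3.83e-11 and 2.48e-08).

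Ltbp1 (chromosome 17, 75005568 to 75392512), which encodes a protein that tethers latent TGF-beta to the matrix, rose by 0.79 to 0.98 on the log2 scale. It ranged from 20.4 to 38.2 CPM over all healthy nerves. The injured Lepr-ctrl nerves had 51.7, 57.3, 76, 16 and 54.4 CPM at 2 wpc and 31.8, 60.5, 57.5 and 49.9 CPM at 4 wpc, and the injured Lepr-cKO nerves 58.6, 70, 24, 33.1 and 43.8 CPM at 2 wpc and 96.6, 60.5, 54.5 and 30.9 CPM at 4 wpc. In every arm at least 1 injured library lay within or below the range of the healthy ones, and in Lepr-ctrl mice at 2 wpc it was SLRKO2wpc144i, the lowest of all libraries. The log2 fold changes were 0.82 ± 0.28 and 0.79 ± 0.27 at 2 wpc (edgeR adjusted p = 0.0116 and 0.00968) and 0.84 ± 0.3 and 0.98 ± 0.3 at 4 wpc (edgeR adjusted p = 0.0137 and 0.00555) in Lepr-ctrl and Lepr-cKO nerves. At 4 wpc both calls depended on 1 library. Without WT-171Sni the Lepr-ctrl value was 0.72 (edgeR adjusted p = 0.0511), and without KO-169Sni the Lepr-cKO value was 0.66 (edgeR adjusted p = 0.063).

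**Figure D3:**
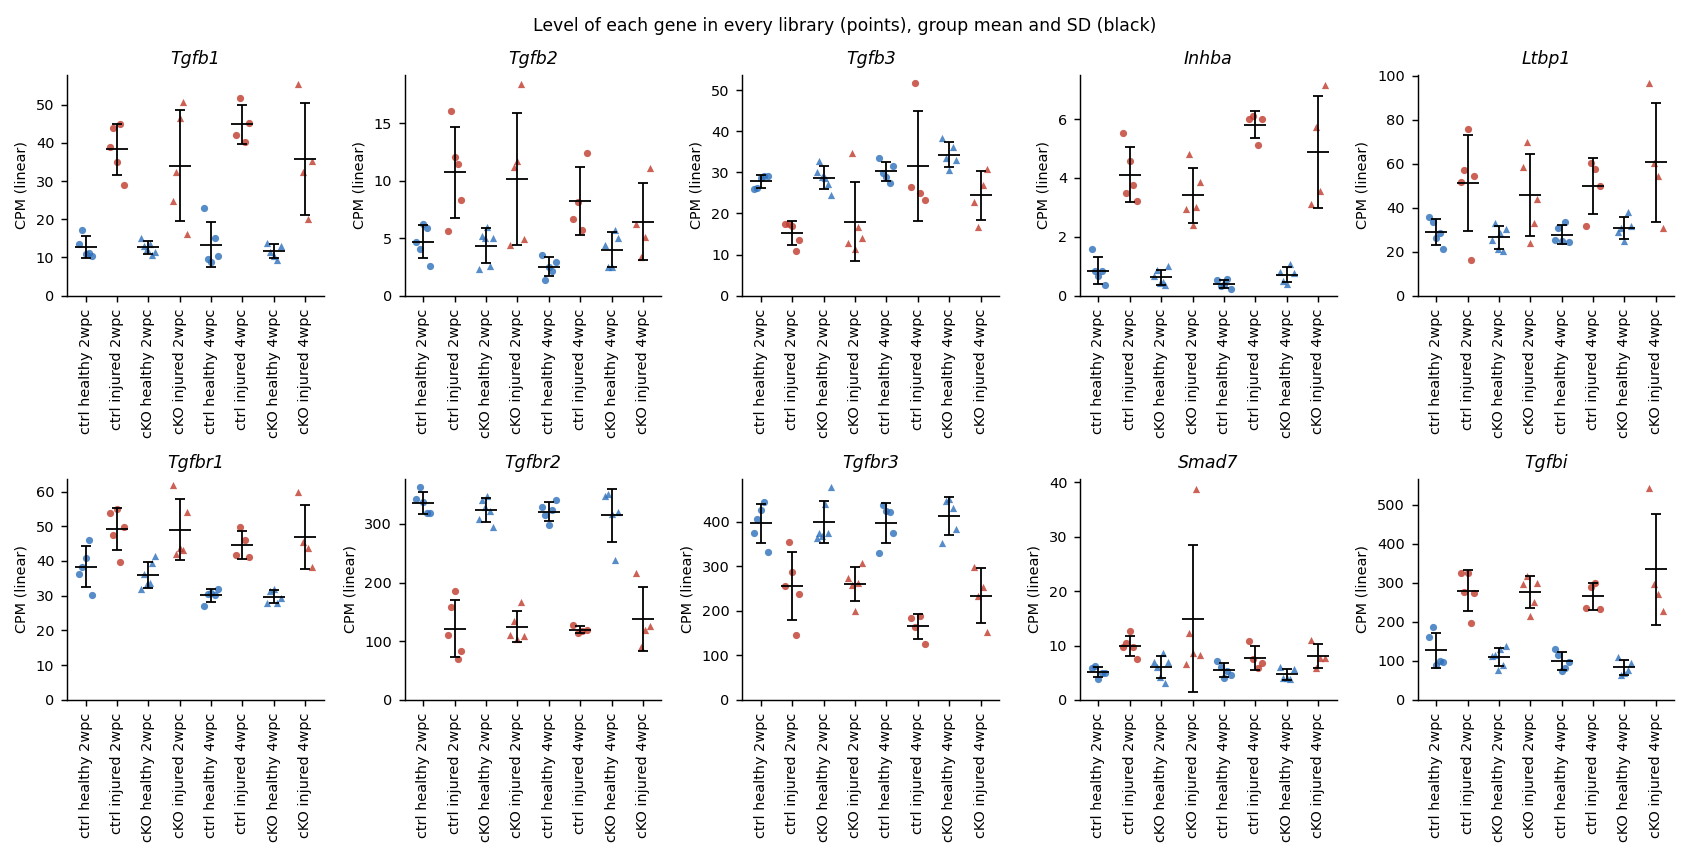
CPM of each of the 10 genes (linear axes from 0) in every library, with healthy nerves in blue, injured nerves in red, Lepr-ctrl as circles and Lepr-cKO as triangles, and the group mean and SD in black. Tgfb1, Inhba and Tgfbi sit higher and Tgfbr2 lower in every injured group, and single injured libraries stand away from their group for Tgfb3 (51.6 CPM) and Smad7 (38.8 CPM).

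Of the receptors, Tgfbr2 (chromosome 9, 116084293 to 116175360, minus strand), which encodes the ligand-binding type II receptor, fell most. Healthy Lepr-ctrl nerves had 343, 362, 337, 319 and 318 CPM at 2 wpc, and injured ones 110, 158, 185, 70.2 and 83.9 CPM. At 4 wpc they had 328, 315, 298, 323 and 340 CPM when healthy and 128.4, 114.3, 117.6 and 119.4 CPM when injured. No injured Lepr-ctrl library reached the lowest healthy one. In Lepr-cKO mice the healthy nerves ranged from 295 to 348 CPM at 2 wpc (median 325) and had 347, 350, 317, 238 and 320 CPM at 4 wpc. Injured Lepr-cKO nerves ranged from 103 to 167 CPM at 2 wpc (median 111) and had 216.5, 90.7, 119.1 and 125.9 CPM at 4 wpc. The groups did not overlap, and the nerve closest to the healthy level was KO-169Sni. That library also had the highest Schwann cell marker sum of the injured nerves (78800 CPM) and the lowest mitochondrial share (2.95%), and it was the highest of its group for 7 of the 10 genes. The part of this in its values was not tested. Tgfbr2 fell to 0.362-fold and 0.387-fold of healthy in Lepr-ctrl and Lepr-cKO nerves at 2 wpc (log2 fold change -1.46 ± 0.19 and -1.37 ± 0.18, edgeR adjusted p = 3.91e-08 and 7.47e-08) and to 0.374-fold and 0.439-fold at 4 wpc (-1.42 ± 0.21 and -1.19 ± 0.2, edgeR adjusted p = 3.28e-07 and 9.04e-06).

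The partner of this receptor, the type I kinase receptor gene Tgfbr1 (chromosome 4, 47353222 to 47414931), rose, but by less. In healthy nerves it ranged from 30.1 to 46 CPM at 2 wpc and from 26.9 to 31.9 CPM at 4 wpc. Injured Lepr-ctrl nerves had 53.7, 47.6, 55.1, 39.7 and 49.7 CPM at 2 wpc and 41.8, 49.7, 46 and 41.1 CPM at 4 wpc, and injured Lepr-cKO nerves 61.9, 42.1, 43.7, 43.2 and 54.2 CPM and 59.9, 45.5, 43.7 and 38.4 CPM. The groups were separate in all arms but Lepr-ctrl at 2 wpc, where SLRKO2wpc144i lay among the healthy ones. Tgfbr1 rose by a log2 fold change of 0.36 ± 0.12 and 0.44 ± 0.11 at 2 wpc (edgeR adjusted p = 0.00744 and 0.000727) and of 0.57 ± 0.12 and 0.66 ± 0.12 at 4 wpc (edgeR adjusted p = 0.000151 and 3e-05) in Lepr-ctrl and Lepr-cKO nerves. As a description, the ratio of Tgfbr1 to Tgfbr2 transcripts per length had group means of 0.118 to 0.143 in healthy nerves and 0.454 to 0.562 in injured nerves, with no overlap (highest healthy library 0.18, lowest injured library 0.323).

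Tgfbr3 (chromosome 5, 107106570 to 107289629, minus strand), which encodes the co-receptor betaglycan that presents TGF-beta2 in particular to the signalling receptors, fell in all arms. It was the most abundant of the 10 transcripts per length in healthy nerves. Healthy nerves ranged from 329 to 479 CPM. Injured Lepr-ctrl nerves had 256, 354, 287, 146 and 239 CPM at 2 wpc and 183.2, 164.1, 189.3 and 124.7 CPM at 4 wpc, and injured Lepr-cKO nerves 274, 259, 200, 262 and 308 CPM at 2 wpc and 299, 234, 253 and 152 CPM at 4 wpc. In Lepr-ctrl mice at 2 wpc SLRKO2wpc130i lay within the healthy range, and in the other arms the groups did not overlap. The log2 fold changes were -0.63 ± 0.17 and -0.62 ± 0.16 in Lepr-ctrl and Lepr-cKO nerves at 2 wpc (edgeR adjusted p = 0.00123 and 0.000973) and -1.27 ± 0.18 and -0.82 ± 0.18 at 4 wpc (edgeR adjusted p = 2.3e-07 and 0.000216). The annotated gene Gm43422 on the same strand shares 4.54% of its exon bases.

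**Figure D4:**
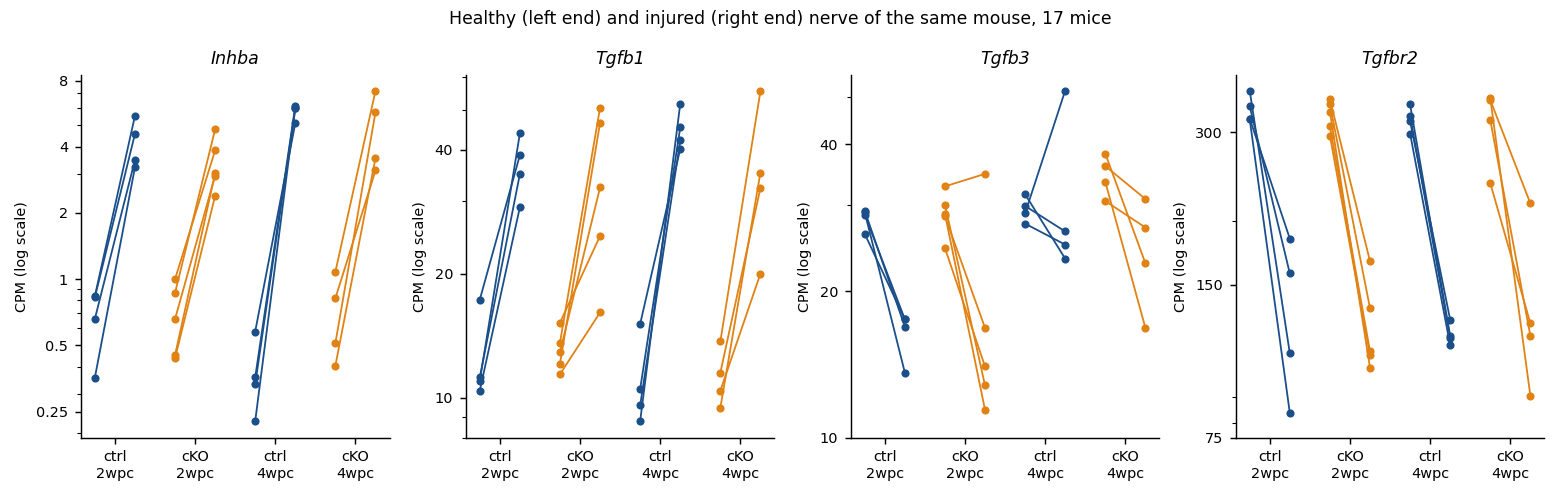
CPM (log axes) of Inhba, Tgfb1, Tgfb3 and Tgfbr2 in the healthy (left end) and injured (right end) nerve of the same mouse, 1 line per mouse for 17 mice, in blue for Lepr-ctrl and orange for Lepr-cKO. All 17 lines rise for Inhba and Tgfb1 and fall for Tgfbr2, and 15 of 17 fall for Tgfb3.

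Smad7 (chromosome 18, 75367529 to 75395935), which encodes the inhibitory Smad that targets the active type I receptor for degradation and is itself a target of the pathway, was low in all nerves. Healthy nerves ranged from 3.1 to 8.65 CPM. Injured nerves had 9.67, 10.4, 12.6, 9.77 and 7.51 CPM (Lepr-ctrl) and 6.59, 12.4, 8.59, 38.8 and 8.34 CPM (Lepr-cKO) at 2 wpc, and 10.8, 7.52, 5.79 and 6.75 CPM (Lepr-ctrl) and 11.1, 5.96, 7.71 and 7.69 CPM (Lepr-cKO) at 4 wpc. Only in Lepr-ctrl mice at 2 wpc were injured and healthy nerves separate, and the value of 38.8 CPM came from SLRKO2wpc135i, with 29.7% mitochondrial counts and the highest endothelial marker sum (2670 CPM). Smad7 rose at 2 wpc, by 0.95 ± 0.32 in Lepr-ctrl and 1.32 ± 0.31 in Lepr-cKO nerves (log2, edgeR adjusted p = 0.011 and 0.000325). Without SLRKO2wpc135i the Lepr-cKO value was 0.59 (edgeR adjusted p = 0.0251), and without the 3 libraries that stand apart it was 0.39 and was not called (edgeR adjusted p = 0.168). At 4 wpc the values were 0.49 ± 0.35 and 0.78 ± 0.34 (edgeR adjusted p = 0.216 and 0.0515). The Lepr-cKO value at 4 wpc passed with the mouse as a block (0.84, edgeR adjusted p = 0.0134) and with DESeq2 (adjusted p = 0.0495), and also without KO-169Snc (0.89, edgeR adjusted p = 0.0413) or KO-175Sni (0.88, edgeR adjusted p = 0.0462).

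Tgfbi (chromosome 13, 56609523 to 56639562), named for its induction by TGF-beta and encoding a secreted matrix protein that binds integrins and collagen, rose in every arm. Healthy nerves ranged from 64.5 to 188 CPM. Injured nerves at 2 wpc had 325, 278, 326, 196 and 275 CPM (Lepr-ctrl) and 298, 319, 216, 251 and 300 CPM (Lepr-cKO). At 4 wpc they had 236, 290, 301 and 234 CPM (Lepr-ctrl) and 543, 298, 272 and 227 CPM (Lepr-cKO). The groups did not overlap in any arm, and the highest value again came from KO-169Sni. The log2 fold change was 1.14 ± 0.22 and 1.32 ± 0.21 at 2 wpc (edgeR adjusted p = 3.33e-05 and 1.33e-06) and 1.41 ± 0.23 and 2.01 ± 0.23 at 4 wpc (edgeR adjusted p = 2.89e-06 and 9.7e-09) in Lepr-ctrl and Lepr-cKO nerves.

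Both nerves were sequenced in 17 mice, which allowed the injured nerve to be set against the healthy nerve of the same animal. Inhba, Tgfb1, Tgfbr1 and Tgfbi were higher in the injured nerve of 17 of 17 mice, and Tgfbr2 and Tgfbr3 were lower in 17 of 17. Tgfb2, Smad7 and Ltbp1 were higher in 16 of 17, and Tgfb3 was lower in 15 of 17. The log2 ratio within a mouse ran from 1.93 to 4.73 for Inhba, from 0.5 to 2.56 for Tgfb1 and from -1.95 to -0.68 for Tgfbr2. For Tgfb3 it ran from -1.34 to 0.84, and the mice in which it was higher were those of SLRKO2wpc126i at 2 wpc and WT-171Sni at 4 wpc.

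Compared per kilobase of exon sequence (RPKM), Tgfbr3 was the most abundant of the 10 transcripts in healthy nerves, at group means of 60.7 to 63.1, and Inhba the least abundant, at 0.063 to 0.133. In healthy Lepr-ctrl nerves at 2 wpc the order was Tgfbr3, Tgfbr2 (41 ± 2.24 SD), Tgfbi (33.7 ± 11.8), Tgfb3 (8.22 ± 0.472), Tgfbr1 (5.86 ± 0.894), Ltbp1 (2.71 ± 0.546), Tgfb1 (2.52 ± 0.566), Smad7 (1.15 ± 0.205), Tgfb2 (0.813 ± 0.253) and Inhba. In this order Tgfbr2 and Tgfbi, Ltbp1 and Tgfb1, and Smad7 and Tgfb2 overlapped between libraries. In the 4 injured groups Tgfbi came first, at group means of 70.4 to 88.9, followed by Tgfbr3 and Tgfbr2, and Inhba was still last at 0.533 to 0.909. Libraries of Tgfbi and Tgfbr3 overlapped in injured Lepr-ctrl nerves at 2 wpc. Those of Tgfbr3 and Tgfbr2 overlapped there and in injured Lepr-cKO nerves at 4 wpc. Tgfbr2 overlapped the gene in place 4 in both injured Lepr-ctrl groups. In injured nerves at 2 wpc the next places from Tgfb1 or Tgfbr1 down to Ltbp1 and Tgfb3 overlapped and had no clear order. Tgfb1 and Ltbp1 move up if the longest transcript is taken as length (Tgfb1 from 2.52 to 4.93 in healthy and from 7.6 to 14.9 in injured Lepr-ctrl nerves at 2 wpc), since their annotated exons exceed it most.

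The genotype of the Schwann cells made no called difference to any of the 10 genes. In injured nerves at 2 wpc, 0 of the 10 passed (0.58% of all genes), 0 had an unadjusted p under 0.05, and the largest difference of Lepr-cKO from Lepr-ctrl was that of Smad7 (log2 fold change 0.58 ± 0.32, edgeR adjusted p = 0.847). The sign of that value rested on SLRKO2wpc135i, at 38.8 CPM, without which it was -0.15 (edgeR adjusted p = 0.971), and without the 3 libraries that stand apart it was -0.36 (edgeR adjusted p = 0.696). At 2 wpc 0 passed in healthy nerves (0.0108% of all genes), also with 0 at an unadjusted p under 0.05. In injured nerves at 4 wpc 0 passed (1.31% of all genes) and 1 had an unadjusted p under 0.05. This was Tgfbr3, at 0.5 ± 0.18 (edgeR adjusted p = 0.121), with 152 to 299 CPM in Lepr-cKO and 124.7 to 189.3 CPM in Lepr-ctrl nerves. It passed when the injured Lepr-cKO nerve KO-177Sni was left out (0.65, edgeR adjusted p = 0.0185). At 4 wpc 0 passed in healthy nerves (0.00542% of all genes), and the 1 gene at an unadjusted p under 0.05 was Inhba (0.8 ± 0.35, edgeR adjusted p = 1). DESeq2 called 0 of the 10 in each of these comparisons. An absence of calls does not show that levels were alike, since the standard errors of these differences ran from 0.11 (Tgfbr1) to 0.41 (Tgfb2) on the log2 scale.

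The response to injury was not called different between genotypes for any of the 10 genes, at 2 wpc (0 of 10, with 0% of all genes called and 0 of 10 at an unadjusted p under 0.05), and the same held at 4 wpc (0 of 10, with 0% of all genes and 1 of 10 at an unadjusted p under 0.05). DESeq2 also called 0 of the 10 at each time. The gene at 4 wpc was Inhba, with a Lepr-cKO minus Lepr-ctrl difference in log2 fold change of -1.06 ± 0.48 (edgeR adjusted p = 0.435). Healthy Lepr-cKO nerves had a mean of 0.716 CPM and healthy Lepr-ctrl nerves 0.403 CPM, beside 4.89 and 5.81 CPM in injured nerves. The difference for Tgfb2 was -1.03 ± 0.55 (edgeR adjusted p = 0.495) and that for Tgfbi 0.6 (edgeR adjusted p = 0.499).

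Between 2 and 4 wpc the response to injury differed for 1 of the 10 genes in Lepr-ctrl nerves (9.1% of all genes) and for 0 in Lepr-cKO nerves (2.09% of all genes, with 1 of the 10, Tgfbi, at an unadjusted p under 0.05 and 0 called by DESeq2). The gene in Lepr-ctrl nerves was Inhba, whose log2 fold change was higher at 4 than at 2 wpc by 1.56 ± 0.46 (edgeR adjusted p = 0.028). Its mean was 0.851 CPM at 2 wpc and 0.403 CPM at 4 wpc in healthy nerves, beside 4.11 and 5.81 CPM in injured nerves. The call for Inhba was lost with no filter on low counts (1.55, edgeR adjusted p = 0.0581) and without any 1 of 6 libraries. Without SLRKO2wpc120c, which had the highest healthy value, the difference was 1.2 (edgeR adjusted p = 0.0992), and without SLRKO2wpc147i it was 1.46 (edgeR adjusted p = 0.0563). Without the 4 wpc nerves WT-171Snc, WT-178Snc, WT-171Sni or WT-178Sni it was 1.5, 1.38, 1.51 and 1.52 (edgeR adjusted p = 0.052, 0.0662, 0.0566 and 0.0507). Tgfb3 and Tgfbr3 came next in Lepr-ctrl nerves, at 0.93 ± 0.31 and -0.64 ± 0.24 (edgeR adjusted p = 0.0523 and 0.0899). Tgfb3 passed with DESeq2 (0.94, adjusted p = 0.0327) and Tgfbr3 with the mouse as a block (-0.83, edgeR adjusted p = 0.0168). Leaving out WT-173Sni or WT-178Sni gave 1.03 and 1.02 for Tgfb3 (edgeR adjusted p = 0.0394 and 0.0455), and leaving out SLRKO2wpc144i gave -0.78 for Tgfbr3 (edgeR adjusted p = 0.0131). Whether the change over time differed between genotypes was not tested.

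The rest of the pathway was followed in 6 lists of related genes. Values are given in the order Lepr-ctrl 2 wpc, Lepr-cKO 2 wpc, Lepr-ctrl 4 wpc and Lepr-cKO 4 wpc, which is kept below. Over all tested genes, 33.7%, 35.9%, 32.4% and 29.6% rose and 30.2%, 29.2%, 31.2% and 25.8% fell with injury. These shares are the background for the counts of each list, and no list was tested against other genes. Of the 14 tested of 22 further ligands of the superfamily, 5, 7, 7 and 6 rose and 3, 3, 2 and 3 fell with injury. In Lepr-cKO nerves at 2 wpc the number that rose was 5 without SLRKO2wpc126i, and also 5 without the 3 libraries that stand apart. The largest rises in Lepr-ctrl nerves at 2 wpc were those of Gdf3, Gdf15, a secreted stress factor, and Gdf11, an activin-like ligand. Gdf3 went from 0.104 ± 0.0731 CPM (SD, n = 5, 17 counts in all) to 10.5 ± 5.64 CPM (n = 5), a log2 fold change of 6.62 ± 0.75 (edgeR adjusted p = 2.4e-09). Gdf11 went from 8.33 ± 1.58 to 43 ± 11.3 CPM (2.37 ± 0.23, edgeR adjusted p = 5.35e-11). All 3 rose in all 4 comparisons. The genes of the bone morphogenetic proteins Bmp7, Bmp5 and Bmp6 fell most in Lepr-ctrl nerves at 2 wpc, with log2 fold changes of -3.65 ± 0.23, -3.29 ± 0.53 and -1.22 ± 0.4 (edgeR adjusted p = 2.1e-15, 1.93e-06 and 0.00814). With the mouse as a block that of Bmp6 was -0.91 and did not pass (edgeR adjusted p = 0.0568). Bmp5 was low, at 3 to 13 counts per injured Lepr-ctrl library at 2 wpc. Its log2 fold change in Lepr-ctrl nerves was higher at 4 than at 2 wpc, by 2.3 ± 0.74 (edgeR adjusted p = 0.0435). The list median was 0.89, 0.7, 1.82 and 0.98, beside the medians over all genes given above.

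Genes of latency and activation, 19 tested of 20, had 10, 10, 5 and 5 higher and 2, 2, 6 and 2 lower, and list medians of 0.72, 0.75, -0.13 and 0.36. The count of lower genes in Lepr-ctrl nerves at 2 wpc was 4 without SLRKO2wpc131i, and that in Lepr-cKO nerves at 4 wpc was 5 without KO-169Sni. Nrros, which holds latent TGF-beta1 on the surface of macrophages and microglia, rose by 2.57 ± 0.21 in Lepr-ctrl nerves at 2 wpc (edgeR adjusted p = 1.85e-12), from 8.53 ± 1.52 to 50.7 ± 14.2 CPM, and rose in the other 3 comparisons as well. Its rise went with that of the macrophage markers given above, whose part in it was not tested. In Lepr-ctrl nerves at 2 wpc the protease gene Bmp1 rose by 2.55 ± 0.24 and the microfibril gene Fbn2 by 1.95 ± 0.38. The integrin subunit genes Itgb5 and Itgav, whose product activates latent TGF-beta, fell there by 2.37 ± 0.15 and 1.9 ± 0.24. The activating integrins did not all move one way in those nerves. Itgb3 and Itgb8, added here after their values were seen, rose there by 1.2 ± 0.29 and 0.88 ± 0.24 (edgeR adjusted p = 0.000604 and 0.00181). Both responses were lower at 4 than at 2 wpc in Lepr-ctrl nerves (-1.35 ± 0.43 and -1.63 ± 0.35, edgeR adjusted p = 0.0417 and 0.00312). At 4 wpc Fbn2 ranged from 2.21 to 3.45 CPM in healthy and from 1.59 to 6.79 CPM in injured Lepr-ctrl nerves. Without the 3 libraries that stand apart, 11 rose and 3 fell in Lepr-ctrl and 7 rose and 3 fell in Lepr-cKO nerves at 2 wpc.

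The 11 other superfamily receptors gave 4, 4, 3 and 2 higher and 2, 1, 4 and 4 lower, and list medians of 0.16, 0.03, -0.35 and -0.33. These counts were sensitive to single libraries. The number that rose was 2 without SLRKO2wpc130i or SLRKO2wpc131i in Lepr-ctrl and 2 without SLRKO2wpc126i or SLRKO2wpc135i in Lepr-cKO nerves at 2 wpc, and 1 without WT-171Sni in Lepr-ctrl nerves at 4 wpc. In Lepr-cKO nerves at 4 wpc it was 0 without KO-175Snc or KO-176Snc, and 1 without KO-169Snc, KO-177Snc, KO-175Sni, KO-176Sni or KO-177Sni. Eng, an endothelial co-receptor, rose by 1.29 ± 0.37 in Lepr-ctrl nerves at 2 wpc (edgeR adjusted p = 0.00292). The 7 endothelial markers summed to 555 to 665 CPM in these healthy and 837 to 1360 CPM in these injured nerves, and their part in this rise was not tested. The activin type II receptor Acvr2a fell in all 4 comparisons (-0.85 ± 0.17, edgeR adjusted p = 4.28e-05), and so did the BMP receptor Bmpr2 apart from Lepr-cKO nerves at 2 wpc (-0.21 ± 0.14, edgeR adjusted p = 0.184), where the value was -0.35 and passed without SLRKO2wpc135i (edgeR adjusted p = 0.0315). Acvr1c and Bmpr1b, which encode type I receptors and were called in Lepr-ctrl nerves at 2 wpc, were near 0 in healthy Lepr-ctrl nerves (4 and 17 counts over the 5 nerves there). Acvr1c (4.83 ± 1.81, edgeR adjusted p = 0.0198) did not pass without SLRKO2wpc130i (4.03) or with the mouse as a block (5.41, edgeR adjusted p = 0.0651 and 0.0682), nor Bmpr1b (2.69 ± 0.98, edgeR adjusted p = 0.017) without SLRKO2wpc131i (2.13, edgeR adjusted p = 0.0702). In the Lepr-cKO nerves at 2 wpc only 1 receptor gene rose once the muscle-rich and high-mitochondrial libraries were left out. Among the 7 Smad transducers, 2, 2, 2 and 1 rose and 3 fell each time, with medians of -0.15, -0.01, -0.02 and -0.12. The number that rose was 1 in Lepr-ctrl nerves at 2 wpc without SLRKO2wpc123c or SLRKO2wpc144i, and 2 in Lepr-cKO nerves at 4 wpc without KO-169Sni or KO-175Sni. Smad2, a direct substrate of TGFBR1, fell by 0.75 ± 0.09 in Lepr-ctrl nerves at 2 wpc (edgeR adjusted p = 8.9e-09), its anchor gene Zfyve9 fell by 1.01 ± 0.12 and the BMP-branch gene Smad9 fell by 2.4 ± 0.37, whereas Smad5 rose by 0.53 ± 0.09. Each of these changes was also called in the other 3 comparisons.

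**Figure D5:**
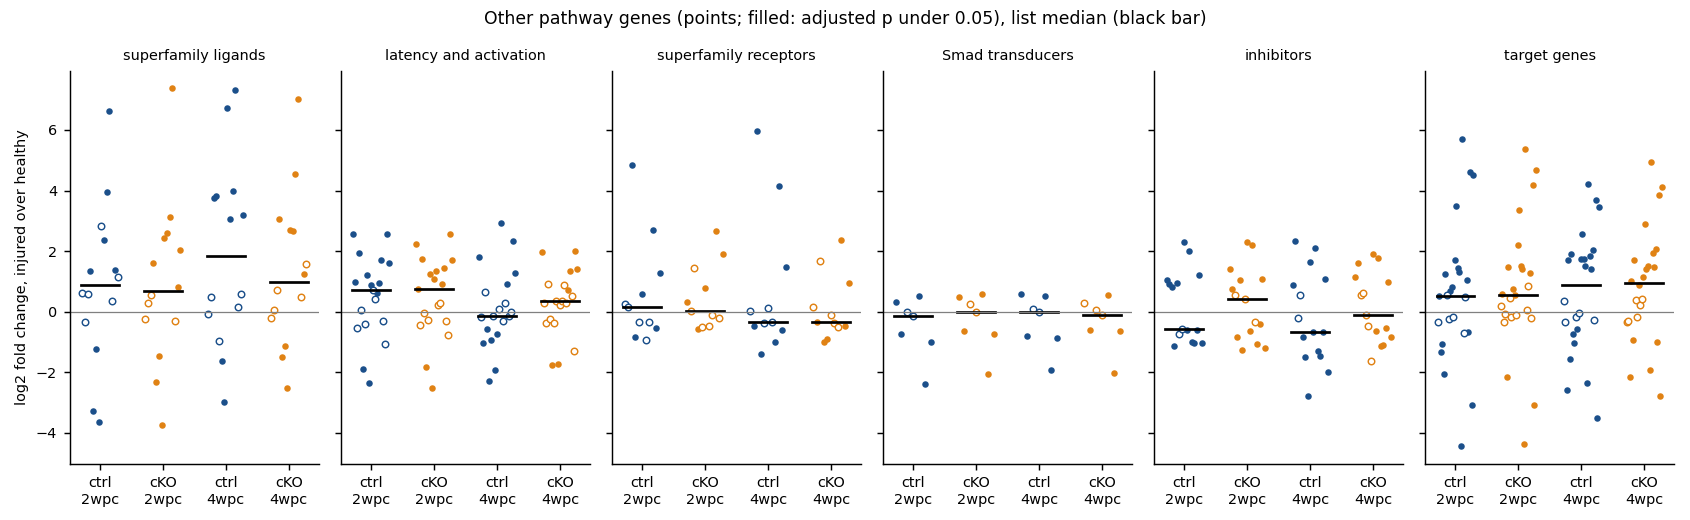
Log2 fold change in injured over healthy nerves for the other genes of the pathway, 1 panel per list and 1 column per comparison (blue Lepr-ctrl, orange Lepr-cKO), with filled points for an edgeR adjusted p under 0.05 and a black bar for the list median. Points lie on both sides of 0 in every panel, and the median of the target genes is 0.53 to 0.94.

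The inhibitors, 15 tested of 16, were split, with 7, 6, 5 and 5 higher and 6, 6, 8 and 5 lower, the last of which was 8 without KO-169Sni. Pmepa1, Skil and Tgif1, negative regulators of which Pmepa1 and Skil are induced by TGF-beta, rose in all 4 comparisons (2.31 ± 0.2, 2.02 ± 0.21 and 1.21 ± 0.15 in Lepr-ctrl nerves at 2 wpc). Tgif2 and the ubiquitin ligase gene Smurf1 fell in all 4. The proteoglycan gene Dcn, which is also a fibroblast marker, fell at 2 wpc in Lepr-ctrl nerves (-1.15 ± 0.31, edgeR adjusted p = 0.0019). In Lepr-cKO nerves at 2 wpc its value of -0.84 ± 0.3 passed (edgeR adjusted p = 0.0156), but not without SLRKO2wpc138c, SLRKO2wpc128i or SLRKO2wpc135i (-0.66, -0.65 and -0.64, edgeR adjusted p = 0.059, 0.068 and 0.0607). At 4 wpc Dcn stood at 0.55 ± 0.33 and 0.62 ± 0.33 (edgeR adjusted p = 0.142 and 0.107). Tgif2 was the 1 gene of the 6 lists that differed by genotype, at 1.03 ± 0.26 in injured Lepr-cKO over Lepr-ctrl nerves at 4 wpc (edgeR adjusted p = 0.0466). In that comparison 1.31% of all genes were called. Its counts were low, at 6 to 22 per injured Lepr-ctrl and 21 to 64 per injured Lepr-cKO library at 4 wpc. With only the groups compared in the fit, 0 of all genes were called higher and 0 lower in this comparison. Tgif2 was looked up there after its values were seen, and its values with libraries left out are not given here. Of the 24 target genes, 12, 12, 12 and 13 rose and 6, 3, 7 and 5 fell, beside the shares over all genes given with the ligand list. Without the 3 libraries that stand apart, 13 rose and 6 fell in Lepr-ctrl and 11 rose and 6 fell in Lepr-cKO nerves at 2 wpc. In Lepr-cKO nerves at 4 wpc, 10 to 12 rose with 1 library left out, the fewest without KO-177Sni. Postn, Timp1 and Tnc, which encode a matricellular protein, a protease inhibitor and tenascin C, rose most, by 5.7 ± 0.4, 4.6 ± 0.3 and 4.5 ± 0.31 in Lepr-ctrl nerves at 2 wpc (edgeR adjusted p = 3.89e-14, 8.25e-15 and 3.32e-14). Lox, which encodes a collagen cross-linking enzyme, fell most (-4.43 ± 0.34, edgeR adjusted p = 2.14e-13), followed by Timp3 (-3.09 ± 0.36) and the cell cycle inhibitor gene Cdkn1a (-2.05 ± 0.21). These 6 target genes were called with the same sign in all 4 comparisons. The list medians were 0.53, 0.57, 0.89 and 0.94 for the target genes and -0.58, 0.42, -0.66 and -0.1 for the inhibitors.

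Genes whose 8 group means were most like those of a ligand were sought among 12107 protein-coding genes (12108 for Inhba), by the root mean square difference of centred log2 CPM. Closest to Tgfb1 were Dnmt3a, Rplp2 and Pla2g15 (0.0576, 0.066 and 0.0674), and closest to Tgfb3 Ndrg3, Vegfb and Nudc (0.0732, 0.0844 and 0.0845). The matches for Tgfb2 (AU021092, Tnfsf10 and Kitl, 0.15 to 0.173) and for Inhba (Tnfaip8, Arhgdib and Lmo2, 0.201 to 0.228) were looser. Likeness over 8 groups, which share their libraries with the tests above, is a description.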

How the data were processed

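RNA-seq of sciatic nerve endoneuria was analyzed from the deposited gene counts. The authors sequenced single-end reads from standard Illumina libraries and, per the labels' processing notes (bcl2fastq 2.20.0.422, STAR 2.5, featureCounts 1.5.0-p1), aligned them to GRCm38 and counted them per gene. The deposited values are raw counts for 55573 genes in 39 libraries, neither normalized nor filtered. The library kit (TruSeq RNA v2) does not mark strand, so reads of genes that overlap on opposite strands cannot be told apart, and the treatment of reads with several alignments is not given in the sources used here.

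Libraries were placed in 8 groups by the sample titles and genotype labels. Counts were tested with edgeR 4.0.16 in R 4.3.3 (TMM factors, filterByExpr at a count of at least 10 and a total of at least 15, quasi-likelihood F test, 1 fit over all 39 libraries, Benjamini-Hochberg adjustment over 18442 genes). The standard error is the absolute log2 fold change over the square root of F. CPM used TMM factors, RPKM the union of annotated exons, and log2 CPM a prior count of 2. Names, positions and lengths came from GENCODE M21 (GRCm38), and promoters from RefSeq windows of 250 bases before to 50 after each start, of which the 250 before were searched. Figures were drawn in Python 3.11.15 with matplotlib 3.10.9. The 741 pairs of libraries held 0 identical ones. On simulated counts the test was checked for sign and size of known changes.

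The genes and lists were chosen with earlier results of these data known. The rule for named genes was all 10 genes in every comparison, up to 3 genes per direction of each list with the largest change among those called in Lepr-ctrl nerves at 2 wpc, and the 3 protein-coding genes with a mean log2 CPM above 1 most like each ligand. Titles give the animal number, by which both nerves of 17 of the 22 mice are paired. Over 18442 genes, deviations from the group mean correlated within these pairs at -0.0637 to 0.262 (median 0.12), above 0.1 in 11 pairs. The fit with the mouse as a replicate block was an alternative, as were DESeq2 1.42.0, its size factors in edgeR, scaling without mitochondrially encoded genes, other filters, fits of only the groups compared, a sex term, an added fold threshold, another length or prior count, and each library left out in turn. Leaving out the 3 libraries rich in muscle or mitochondrial counts together was chosen after seeing the data.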

Additional observations from a re-analysis of the deposited data

Results flagged for a closer look

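In 80 groups of values (10 genes in 8 groups) the highest or lowest library was tested for its distance from the others, by Dixon's 95% critical value, and 4 groups held such a library, where chance alone gives about 1 in 20. Tgfb3 stood at 34.8 CPM in the injured Lepr-cKO nerve SLRKO2wpc126i, above 11.4 to 16.8 CPM in the rest of its group, in the library rich in skeletal muscle transcripts. Tgfb3 also stood at 51.6 CPM in the injured Lepr-ctrl nerve WT-171Sni, above 23.3 to 26.5 CPM in the rest. Smad7 reached 38.8 CPM in the injured Lepr-cKO nerve SLRKO2wpc135i, beside 6.59 to 12.4 CPM. Inhba was at 5.12 CPM in the injured Lepr-ctrl nerve WT-173Sni, below 6 to 6.12 CPM, a gap that is narrow in itself. The response of Inhba to injury in Lepr-ctrl nerves differed between 4 and 2 wpc by 1.56 on the log2 scale by the interaction term of the edgeR fit. Under 7 of 27 alternatives this difference was not called.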

How the results depend on the processing

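No called change of the 10 genes or of the pathway genes named changed sign under any alternative. DESeq2 size factors and leaving out mitochondrially encoded genes changed no call of these named genes, though the latter raised the counts of higher genes in Lepr-cKO nerves at 2 wpc to 11 for latency and activation and 13 for the target genes. With an added threshold of 1 on the absolute log2 fold change, the number of the 10 genes called with injury was 5 in Lepr-ctrl and 6 in Lepr-cKO nerves at 2 wpc and 6 in Lepr-ctrl and 4 in Lepr-cKO nerves at 4 wpc. In the same order, 3652, 3857, 3699 and 3095 of the 18442 tested genes were called higher under this threshold and 2637, 2473, 2930 and 1990 lower. For the difference in response between 4 and 2 wpc in Lepr-ctrl nerves, the count of 1 became 2 with DESeq2, 2 with the replicate block, 2 with the groups compared only, 3 without the muscle-rich and high-mitochondrial libraries and 0 with no filter on low counts. Under the replicate block, 10 of 10 genes were called with injury in Lepr-ctrl and in Lepr-cKO nerves at 2 wpc, 8 in Lepr-ctrl and 10 in Lepr-cKO nerves at 4 wpc, and 0 for the genotype difference in response at either time, and it changed no call of the 10 genes beyond those given in the report. Over all genes the block called 5677, 5940, 5739 and 4999 higher with injury and 5154, 5438, 5679 and 4753 lower, in the same order of groups. Leaving out each library in turn gave 10 to 10 genes called with injury at 2 wpc in Lepr-ctrl and in Lepr-cKO nerves, 7 to 8 and 6 to 8 at 4 wpc, 0 to 1 for genotype in injured nerves at 4 wpc, 0 to 2 for time in Lepr-ctrl nerves and 0 to 0 in the other comparisons. Depth limits Inhba most, with 7 to 52 counts in healthy nerves. The p-values of the main fit rest on a spread between nerves that all 8 groups share, from at most 6 mice per group. That fit takes both nerves of a mouse as independent.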
